A study of Rattus norvegicus with 10 samples.

Results

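The genes described here code for the proteins of the cytosolic ribosome, and they were read on 10 Affymetrix RAE230 arrays of rat mammary gland RNA. A gene was included when its platform symbol was Rpl or Rps followed by digits and at most a letter, or was Rplp0, Rplp1, Rplp2 or Rpsa; S6 kinases, pseudogenes and genes with like names were left out. By this rule 40 of the 10411 genes with a probe set of their own were members, on 45 of 12783 such probe sets, with 28 genes of the large subunit and 12 of the small subunit. A gene with several probe sets was read on the brightest of them. A current gene table holds 77 genes by the same rule. Of the 37 that could not be read singly, 29 sit on probe sets that the platform annotation assigns to several symbols, and 8 have no probe set named for them here. Rplp1 and Rplp2, acidic proteins of the ribosomal stalk, are among these 37 and have no value below.

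Female Sprague-Dawley rats at postnatal day 50 had been fed a purified diet labelled CAS, SPI or GEN, and the series title names SPI and genistein. Each RNA was a pool from the number 4 mammary glands of 2 animals on the same diet, and 3 labelled targets were made from each pool according to the labelling protocol. The CAS group held 3 arrays (numbered 1 to 3), the SPI group 4 (2 to 5) and the GEN group 3 (1, 3 and 5). Which of the arrays come from a common pool is not labelled, so every p-value below measures the spread between these arrays, which may in part be technical.

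The labelled source is mammary epithelial cells, whereas the protocol names the gland, and the colon appears in the design text as well. Mammary epithelium was present on all arrays: the keratin Krt8 read 1409 to 5260 and the milk protein gene Csn1s1 9120 to 26451 in signal units. Esr1, the estrogen receptor of luminal cells, read at most 16.1 on its probe set. Of 12 lymphocyte markers 5 passed the filter on dim probe sets, among them the T cell kinase Lck at 401 to 536 and the leukocyte gene Ptprc at 109 to 477, while the T cell genes Cd3e and Cd8a read at most 78.6 and 38.0. Fibroblast and endothelial markers were present too, so the RNA came from more than epithelium. Of 6 adipocyte markers 4 passed the filter, among them Fabp4 at 10206 to 16003, while Plin1 and Lep read at most 110.2 and 18.8. Summed milk protein signal was 27327 to 70973 on the CAS arrays, 23688 to 59881 on the SPI arrays and 71989 to 94838 on the GEN arrays. Summed luminal epithelial signal ranged from 13737 to 23016 with CAS, from 8540 to 17550 with SPI and from 19092 to 25101 with GEN. Array CAS 1 had a summed skeletal muscle signal of 9508, against 2315 to 3093 on the other 9. In a bulk sample, fewer cells of a type and less RNA per cell cannot be told apart.

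The ribosome joins amino acids into protein. Its small subunit decodes the mRNA and its large subunit forms the peptide bond and holds the tunnel through which the new chain leaves. Its proteins are needed in matched amounts, and most of their mRNAs begin with a C followed by a stretch of pyrimidines, the TOP motif, through which the kinase mTOR and the RNA-binding protein Larp1 control their translation. The level of these mRNAs, which is what an array reads, is therefore only part of what sets the amount of ribosomal protein in a secretory tissue such as the mammary gland.

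A stretch of pyrimidines lay near the annotated start in many members, though not always where a TOP motif would lie. The sequences below run from 40 bases before to 20 bases from the start, 5′ to 3′ in the direction of transcription, and were taken from RefSeq on build GRCr8; capitals mark a run of at least 8 consecutive C or T bases lying within 20 bases on either side of the start. They are shown for Rpl37a and Rpl39, whose signal varied most across arrays, and for Rpl35a, Rpl19 and Rplp0, which varied little to moderately. The last is Rpl41, where no such run lies within 20 bases of the start, though the printed sequence holds one further upstream.
Rpl37a (chr9:81748051-81748110, plus strand): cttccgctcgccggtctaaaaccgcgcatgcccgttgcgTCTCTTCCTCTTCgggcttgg
Rpl39 (chrX:121195877-121195936, minus strand): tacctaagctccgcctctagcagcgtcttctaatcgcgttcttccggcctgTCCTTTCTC
Rpl35a (chr11:81235002-81235061, minus strand): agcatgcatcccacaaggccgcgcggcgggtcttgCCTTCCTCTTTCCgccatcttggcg
Rpl19 (chr10:83519024-83519083, plus strand): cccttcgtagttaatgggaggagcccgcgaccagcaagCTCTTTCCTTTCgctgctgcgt
Rplp0 (chr12:46718371-46718430, minus strand): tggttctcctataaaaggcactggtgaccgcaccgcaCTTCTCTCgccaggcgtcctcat
Rpl41 (chr7:1563478-1563537, minus strand): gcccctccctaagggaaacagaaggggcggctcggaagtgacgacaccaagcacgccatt

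Promoter sequences were matched for 35 of the 40 members. A run of at least 8 C or T bases within 20 bases of the start was found in 24 of these 35 (68.6%), against 15.5% of all 33469 promoters in the table. The letters CTTCCGG, on either strand of the 300 bases from 250 before to 50 after the start, were found in 8 members (22.9%), against 8.75% of all promoters. TATAAA within 50 bases before the start was found in 2 members (5.71%), one of them Rplp0, against 2.26% of all. Rpl37a has its run directly across the annotated start, as Rpl35a and Rpl19 have. Other runs end before the start, as in Rpl13a, or begin after it, as in Rpl39. A run counted here is therefore not always a TOP motif. A match of letters is a description and does not show a working site.

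Values below are MAS5 signals, the linear intensity that the array software gives a probe set after scaling each array. Of the 40 members, 39 passed the filter that removed the dimmest 40% of probe sets by mean log2 signal over all arrays. Rpl30 did not pass: its probe set read 69.4 to 174.4 and was not tested. The members were bright: 38 of the 39 had a geometric mean signal over 5000, the exception being Rpl39. Together the 40 members made up 4.56% of the summed signal on array CAS 2 and 5.51% on GEN 3, the lowest and highest shares among the 10 arrays.

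The members varied little. Across the 10 arrays the SD of log2 signal had a median of 0.13 over the 39 members, against 0.25 over all 9520 probe sets tested and 0.19 over the 259 other probe sets with a geometric mean over 5000. Some members lay at the top of the signal range: Rps29, at 31197, had the highest signal on GEN 3. The part of signal level in the low spread was not tested. The steadiest was Rpl27a, a large subunit protein, which read 18088, 17952 and 18732 on the CAS arrays 1, 2 and 3, 19170, 19099, 20675 and 20787 on the SPI arrays 2 to 5, and 18667, 19723 and 19084 on the GEN arrays 1, 3 and 5. Its highest array was 1.16-fold above its lowest. Rplp0, the stalk base protein often used as a reference gene, had a coefficient of variation of 9.68% and a highest array 1.33-fold above the lowest. At the other end were Rpl37a, with a coefficient of variation of 37.1% and a 2.67-fold range, and Rpl39, with 22.9% and a 1.84-fold range.

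**Figure D1:**
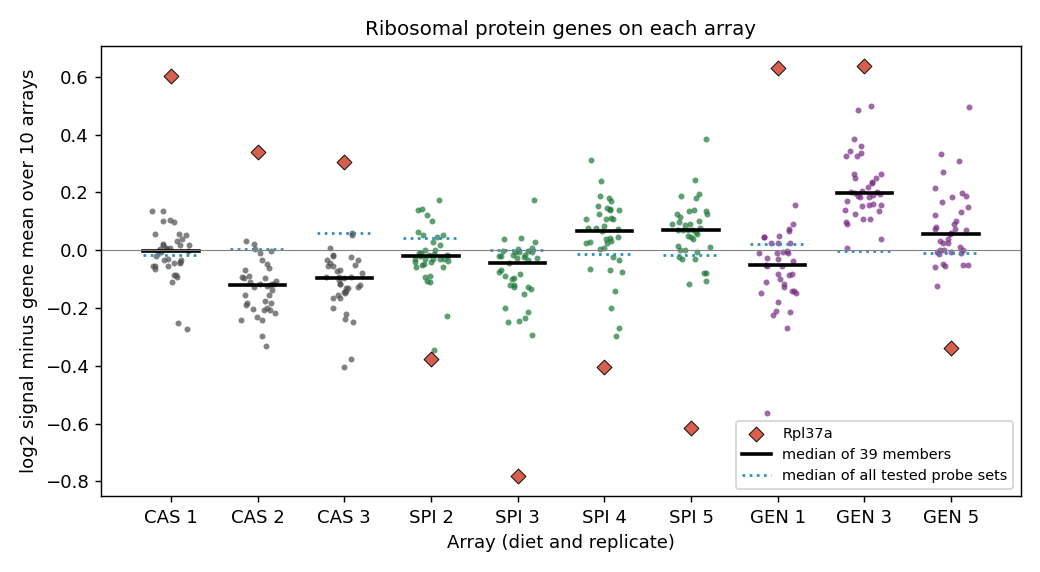
Log2 deviation of each of the 39 tested members from its own mean over 10 arrays (y axis) on each array (x axis), in which each point is a gene and the line is the median. On GEN 3 the median was 0.20 and all 39 members lay above their own means, while Rpl37a ran from -0.78 on SPI 3 to 0.64 on GEN 3.

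The deviations in the plot of members by array showed that, in the values as deposited, most members moved together from array to array. On CAS 2 and CAS 3 the median deviation was -0.12 and -0.10 log2, and 4 of 39 members were above their own mean on each; on CAS 1 it was -0.00 (19 of 39 above). On the SPI arrays it was -0.02, -0.04, 0.07 and 0.07 for replicates 2 to 5, with 12, 6, 29 and 30 members above. Among the GEN arrays, replicate 1 was at -0.05 (11 above), replicate 3 at 0.20 (39 above) and replicate 5 at 0.06 (27 above). Arrays of 1 diet thus lay on both sides of 0 for SPI and for GEN. With quantile normalization most of these medians were nearer to 0. The median was -0.04 on CAS 2 (10 above) and -0.005 on CAS 3 (18 above). On SPI 4 and SPI 5 it was 0.004 and 0.007 (21 above on each), while on CAS 1 it was further from 0, at -0.03.

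GEN 3 was the highest array for 27 of the 39 members, and CAS 2 the lowest for 15. The 32 probe sets that carry a ribosomal protein symbol among several symbols had a median deviation of 0.20 on GEN 3 as well, and 30 of them were above their own mean there. For the 259 other bright probe sets the GEN 3 median was 0.09, with 171 above. GEN 3 also had the lowest GAPDH 3′ to 5′ ratio, a readout of RNA and target integrity, at 1.18; the others ranged from 1.25 to 2.91. Its actin ratio, 3.74, was not the lowest, since GEN 5 and SPI 5 read 2.83 and 2.94. The part of these ratios, and of bright signal as a whole, in the members' deviations was not tested. With quantile normalization the GEN 3 median was 0.05 and 32 members were above, and with arrays centred on their medians it was 0.17.

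**Figure D2:**
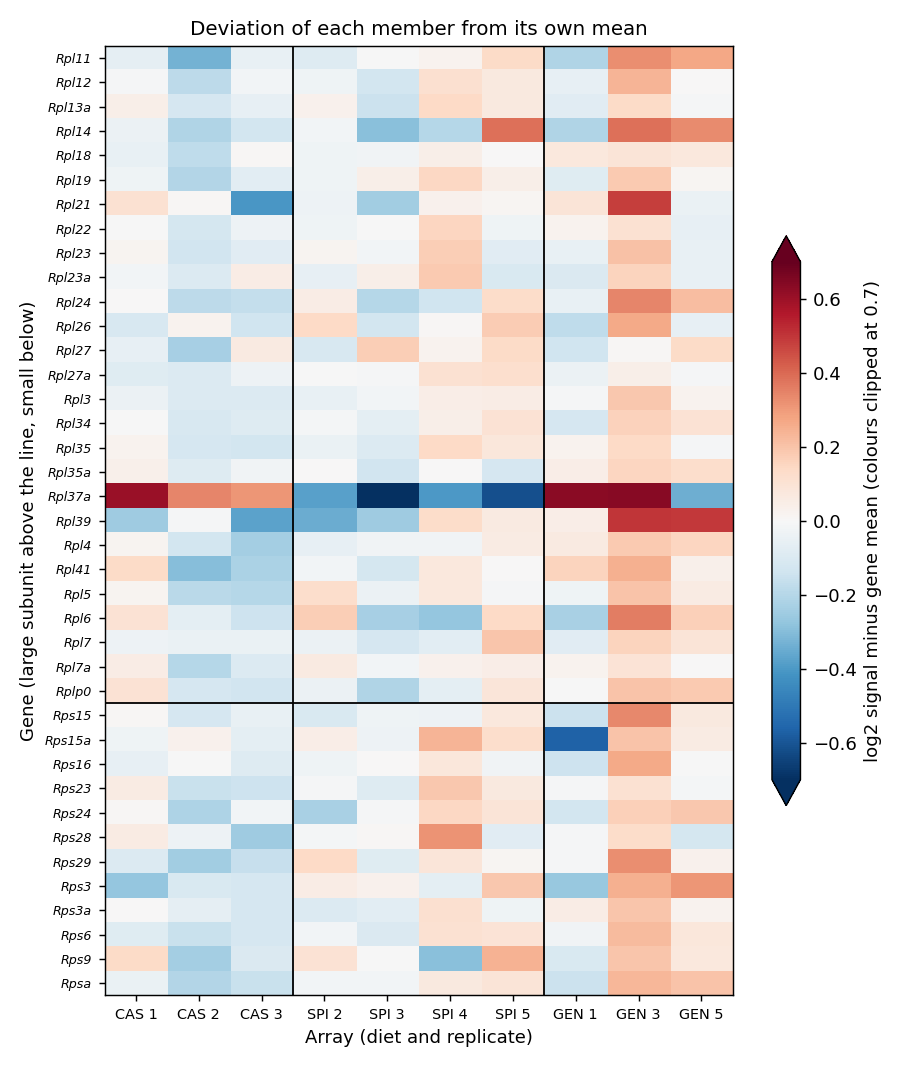
Log2 deviation from the gene's own 10-array mean (colour) for each tested member (rows) and array (columns, by diet). The GEN 3 column is above 0 for all 39 members and the CAS 2 and CAS 3 columns are above 0 for 4 members each; the Rpl37a row runs from -0.78 on SPI 3 to 0.64 on GEN 3.

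Rpl37a, a zinc-binding protein of the large subunit, departed from the other members. It read 24590, 20488 and 20009 on the CAS arrays 1, 2 and 3. On the SPI arrays 2 to 5 it read 12457, 9422, 12234 and 10563, and on the GEN arrays 1, 3 and 5 it read 25036, 25145 and 12784. All 4 SPI arrays were below all 3 CAS arrays and all 3 GEN arrays, while GEN 5 was nearer to the SPI arrays than to the other GEN arrays. Set against the median deviation of the other 38 members on the same array, Rpl37a was higher by 0.61, 0.46 and 0.41 log2 on CAS 1, 2 and 3 and by 0.68 and 0.44 on GEN 1 and GEN 3. Measured that way it was at -0.36, -0.74, -0.47 and -0.69 on SPI 2 to 5, and at -0.40 on GEN 5. Other members also had a pyrimidine run, belonged to the large subunit or were bright. What set Rpl37a apart from them was not tested.

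The mean Rpl37a signal was 11169 ± 1439 (SD, n = 4) with SPI, 21696 ± 2518 (SD, n = 3) with CAS and 20988 ± 7105 (SD, n = 3) with GEN. The SPI minus CAS difference was -0.96 ± 0.21 (SE) log2, with a 95% interval from -1.41 to -0.52, and limma gave an adjusted p of 0.582 over all 9520 probe sets. SPI minus GEN was -0.85 ± 0.21 log2 (limma adjusted p = 0.405), and GEN minus CAS was -0.11 ± 0.22 log2 (limma adjusted p = 0.942). None of these passed. Whether SPI minus GEN passed depended on GEN 5, the GEN array nearest to the SPI arrays. Without it, GEN 1 and GEN 3 alone stood for the GEN diet. The SPI minus GEN difference was then -1.18 log2 with a limma adjusted p of 0.0278, which passed, and GEN minus CAS became 0.22. Leaving out single arrays gave SPI minus GEN differences from -1.18 to -0.69. Across the alternatives tried, the limma adjusted p of SPI minus GEN ranged from 0.0278 to 0.998 and that of SPI minus CAS from 0.147 to 0.9999. Rpl37a has 1 probe set named for it, so no second one could be compared.

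**Figure D3:**
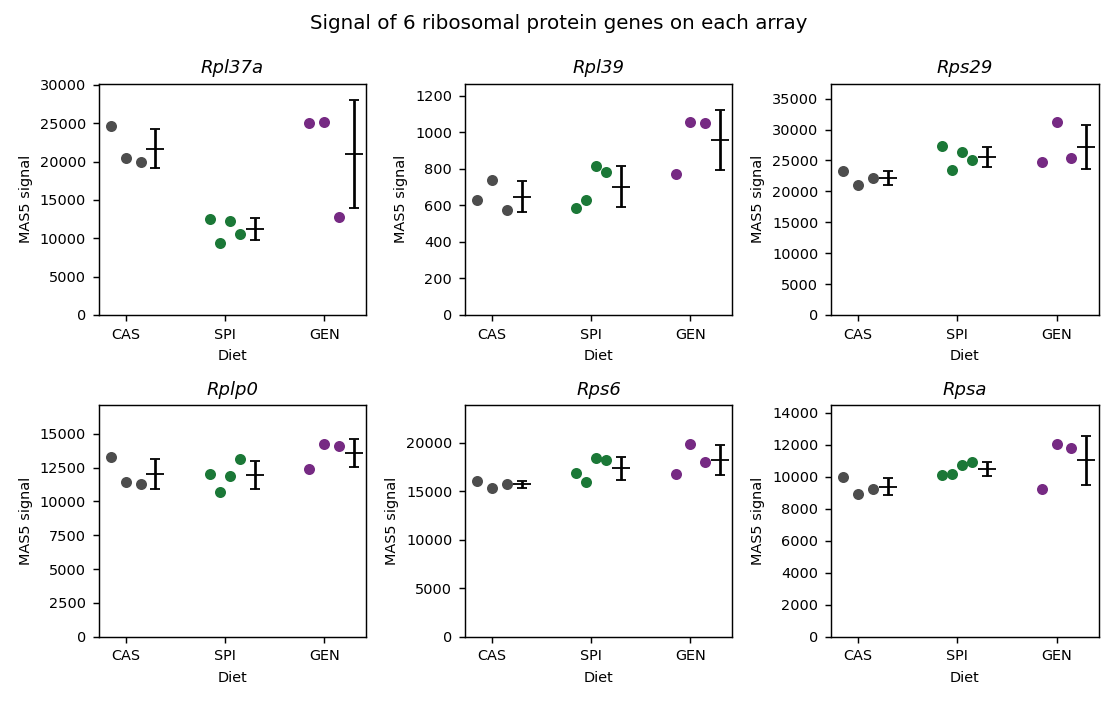
MAS5 signal (y axis, linear, from 0) of 6 members on each array by diet (points), with the mean and SD of each diet beside them (3 CAS, 4 SPI and 3 GEN arrays). Rpl37a falls into a low SPI group and a split GEN group, while Rplp0, Rps6 and Rpsa overlap between at least one pair of diets.

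The first comparison asks how the SPI diet differed from the CAS diet. Apart from Rpl37a, the members were slightly higher with SPI: the median log2 difference over the 39 was 0.09, with 35 above 0 (47.7% of all probe sets tested were above 0) and 4 below. No member passed limma's test (0% of all probe sets passed), with or without an intensity trend in its variance. At an unadjusted p under 0.05 there was 1 member (background 4.82%), Rpl37a, which was lower (background 3.29%), and 0 were higher (background 1.53%). Signals of the 2 diets did not overlap for 6 members (background 4.6%), of which 5 were higher with SPI (Rps29, Rpl27a, Rpl19, Rps3 and Rpsa, background 1.78%) and 1 was lower (Rpl37a, background 2.83%).

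All tested probe sets had a median SPI minus CAS difference of -0.01, and the 259 other bright probe sets a median of 0.07 with 181 above 0. The members' median was therefore close to that of other bright probe sets. The 32 probe sets of several symbols had a median of 0.10, with 29 above 0. With quantile normalization the members' median was 0.03, with 26 of 39 above 0, and with centred arrays it was 0.16. It was 0.05 without CAS 2. Without CAS 1 (background 3.76%) or SPI 3 (background 3.11%), 2 members were under the unadjusted threshold. Markers of other cell types moved in the same comparison: the median was -0.33 for luminal epithelium (0 of 10 above 0), -0.69 for macrophages (0 of 10), -0.49 for fibroblasts (0 of 8), -0.63 for skeletal muscle (0 of 6) and 0.28 for endothelium (6 of 6). No marker passed limma's test, and their part in the members' values was not tested.

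Among small subunit members, Rps29, a zinc-binding protein near the mRNA path, read 23303, 21026 and 22196 with CAS, 27369, 23465, 26328 and 25077 with SPI and 24733, 31197 and 25394 with GEN. The lowest SPI and the lowest GEN array were above the highest CAS array. SPI minus CAS was 0.20 ± 0.10 (SE) log2. Rps3, which lines the mRNA entry and is also a DNA repair endonuclease, read 9816 to 11008 with CAS, 11308 to 13485 with SPI and 9840 to 14689 with GEN, and its SPI minus CAS difference was 0.21. Rpsa, known also as the laminin receptor precursor, read 9943, 8910 and 9202 with CAS, 10107, 10130, 10741 and 10931 with SPI and 9253, 12038 and 11755 with GEN. The SPI arrays lay above the CAS arrays by a small margin, and the difference was 0.16. Rps6, the substrate of the S6 kinases, read 16095, 15359 and 15773 with CAS, 16864, 15933, 18402 and 18266 with SPI and 16784, 19898 and 18052 with GEN. The SPI and CAS arrays overlapped in Rps6, and the difference was 0.14 log2. Each of these had a limma adjusted p of 0.987. The 12 small subunit members were all above 0 in SPI minus CAS, from 0.03 for Rps15 to 0.21 for Rps3, with a median of 0.12. With quantile normalization Rps15 was below 0, at -0.03.

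The large subunit members had a median SPI minus CAS difference of 0.08, and 23 of 27 were above 0. Rpl11 (0.17) and Rpl5 (0.16), partners that join the subunit together and also bind Mdm2, the negative regulator of p53, were among the 6 highest members, as was Rpl19 (0.15); without CAS 2 Rpl11 was at 0.08 and Rpl19 at 0.10. The lowest after Rpl37a were Rpl35a at -0.04, Rpl6 at -0.01, Rplp0 at -0.01 and Rpl7 at 0.03. Centring the arrays moved Rpl35a, Rpl6 and Rplp0 above 0 (0.04, 0.06 and 0.06), and quantile normalization moved Rpl7 below it (-0.06). Rplp0 itself read 13279, 11429 and 11312 with CAS, 12051, 10700, 11845 and 13169 with SPI, and 12368, 14249 and 14092 with GEN, and the CAS and SPI arrays covered nearly the same range.

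The next comparison sets the GEN diet, genistein by the series title, against CAS; it uses the same CAS arrays as the first. The members were higher with GEN, with a median log2 difference of 0.14, and 37 of 39 were above 0 (47.9% of all probe sets were). No member passed limma's test (0% of all probe sets), again with either variance model. There were 4 members at an unadjusted p under 0.05 (background 5.89%), all higher with GEN (background 2.7%, and 3.19% for lower): Rpl39, Rps29, Rpl4 and Rpl41. Signals did not overlap for 8 members (background 11.1%), all higher with GEN (background 5.7%, and 5.41% for lower), namely Rps29, Rpl3, Rps3a, Rps6, Rpl35a, Rpl18, Rpl4 and Rpl39.

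Rpl39, a short protein that lines the exit tunnel of the large subunit, had the largest difference. It read 627, 741 and 575 with CAS, 587, 628, 814 and 780 with SPI, and 770, 1055 and 1052 with GEN. The GEN arrays were all above the CAS arrays, GEN 1 only by a little, and they overlapped the SPI arrays. GEN minus CAS was 0.56 ± 0.19 (SE) log2, a 1.47-fold ratio of geometric mean signals, with a limma p of 0.00994 and an adjusted p of 0.825. SPI minus GEN for Rpl39 was -0.45 ± 0.17 log2 (limma adjusted p = 0.577).

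Rpl41, an extremely short basic peptide of the large subunit, read 15983, 11852 and 12503 with CAS, 14389, 13387, 15344 and 14574 with SPI, and 16247, 17314 and 14954 with GEN. CAS 1 lay above GEN 5, so the groups overlapped, and GEN minus CAS was 0.28 log2. Rpl4, which reaches into the exit tunnel, read 8100, 7318 and 6791 with CAS and 8372, 9086 and 8878 with GEN. These did not overlap, and the difference was 0.25. Rpl14 (0.30), Rpl24 (0.28), Rps29 (0.28) and Rpl11 (0.28) completed the highest 6 with Rpl39 and Rpl41. Without GEN 3 they were at 0.19 (Rpl14), 0.18 (Rps29) and 0.18 (Rpl11), and without GEN 1 Rpl14 was at 0.49 and Rpl11 at 0.45. Rps6 was at 0.21, Rpsa at 0.23 and Rplp0 at 0.18.

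Below 0 in GEN minus CAS were Rpl37a and Rps15a. Rps15a, a small subunit protein, read 8165 on GEN 1, whereas the 9 other arrays lay between 11509 and 14240. Its difference was -0.08 log2, and 0.15 without GEN 1. The next lowest members were Rpl23a (0.02), at the tunnel exit, Rpl13a (0.06), Rpl27a (0.07) and Rps28 (0.07). With quantile normalization these fell on the other side of 0, at -0.03, -0.04, -0.04 and -0.05. All 26 large subunit members other than Rpl37a were above 0 in the values as deposited.

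The GEN minus CAS medians were -0.01 over all tested probe sets, 0.07 over the 259 other bright probe sets (164 above 0) and 0.16 over the 32 probe sets of several symbols (30 above 0). Single arrays carried much of the members' median: it was 0.08 without GEN 3, with 34 of 39 above 0, and 0.19 without GEN 1. The count at an unadjusted p under 0.05 was 10 without GEN 1, 2 without CAS 3, and 1 without GEN 3 or without CAS 2. With quantile normalization the median was 0.05, with 28 above 0. Milk protein genes were also higher with GEN, with a median of 1.07 log2 and 6 of 6 above 0, and luminal markers had a median of 0.34 with 8 of 10 above 0; macrophage markers had a median of -0.48 (2 of 10 above 0) and fibroblast markers one of -0.23 (0 of 8). None of these passed limma's test, and their part was not tested here either.

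**Figure D4:**
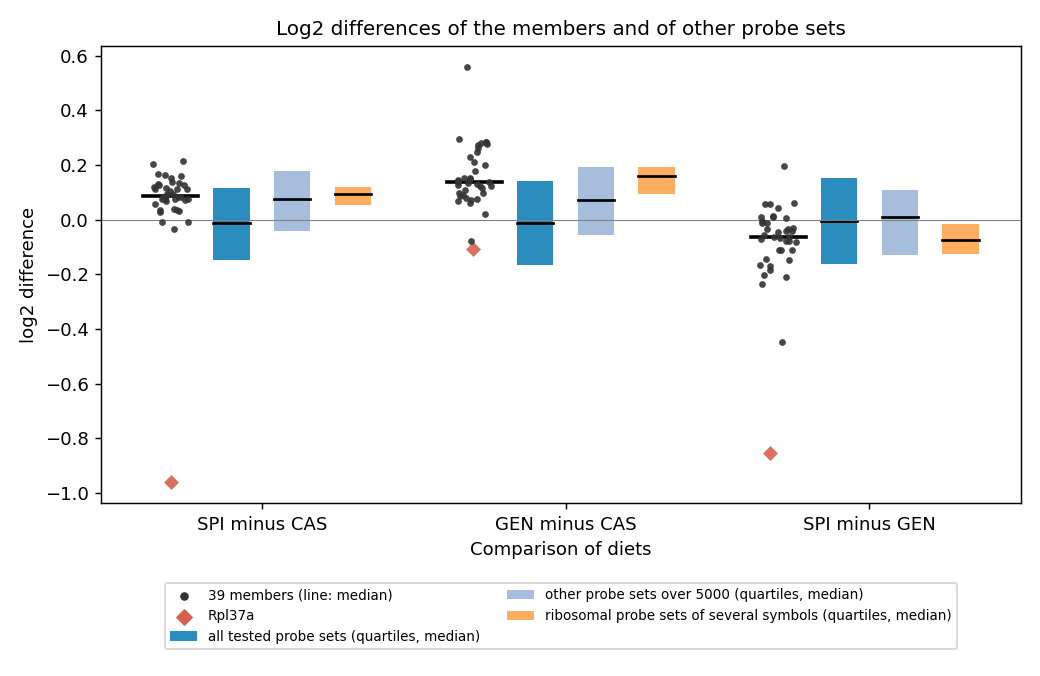
Log2 differences between diets (y axis) in the 3 comparisons (x axis): points are the 39 tested members, with a line at their median and a diamond for Rpl37a, and boxes span the quartiles, with the median as a line, of the other sets of probe sets. The members' medians were 0.09, 0.14 and -0.06, against 0.07, 0.07 and 0.01 for other bright probe sets.

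The comparison of SPI with GEN shares its SPI and GEN arrays with the first 2. Most members were lower with SPI, at a median of -0.06, with 30 of 39 below 0 (50.8% of all probe sets were) and 9 above (49.2%). No member passed limma's test (0% of all probe sets). Rpl37a and Rpl39 were under an unadjusted p of 0.05 (background 7.95%), both lower with SPI (background 4.25%, and 3.7% for higher). Signals did not overlap for 4 members (background 8.5%), all lower with SPI (background 4.37%, and 4.13% for higher): Rpl37a, Rpl35a, Rpl18 and Rpl4.

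Rpl35a read 14404, 13123, 14440 and 13273 with SPI and 14878, 16008 and 15679 with GEN. Its CAS arrays, at 14734, 13538 and 14174, overlapped the SPI arrays and lay below the GEN arrays. The SPI arrays were all below the GEN arrays, and the difference was -0.17 log2. Rpl21 (-0.23), Rpl24 (-0.21), Rpl14 (-0.20) and Rplp0 (-0.19) followed Rpl37a and Rpl39 at the low end, all of the large subunit. Without GEN 3, Rpl21 was at -0.08, Rpl14 at -0.09 and Rpl24 at -0.12; leaving out single arrays took Rpl21 as low as -0.35, Rpl14 to -0.39 and Rpl24 to -0.32. Rpsa was at -0.06 and Rps6 at -0.07. The highest were Rps15a (0.20), Rps28 (0.06), Rpl27a (0.06), Rpl27 (0.06), Rpl26 (0.04) and Rpl23a (0.01), and Rps15a was at -0.04 without GEN 1.

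The direction of this comparison rested on GEN 3. Without it the members' median was 0.02, with 22 above 0 and 17 below, and with arrays centred on their medians it was -0.0005. The median was -0.12 without GEN 1 and -0.04 without SPI 3. The unadjusted count was 5 without GEN 1 (background 10.3%). It was 1 without SPI 2 (background 8.40%), SPI 3 (background 6.04%) or GEN 5 (background 5.12%). All tested probe sets had a median of -0.00 and the other bright ones 0.01. Cell type markers differed more: the median was -1.20 for milk protein genes (6 of 6 below 0), -0.69 for luminal markers (10 of 10 below) and 0.41 for endothelial markers (6 of 6 above). None passed limma's test, and what they contribute to the members' values was not tested.

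For 4 members further probe sets could be compared. Rpsa was read by 3: the brightest gave SPI minus CAS 0.16, GEN minus CAS 0.23 and SPI minus GEN -0.06. The other Rpsa probe sets gave 0.18, 0.07 and 0.11, and 0.18, 0.01 and 0.17, so they were alike in the first comparison and differed in sign in the last. Both are of types that can match related sequences, and ribosomal protein genes have many processed pseudogene copies, so how such probe sets divide signal among copies is uncertain. The second probe sets of Rpl14, Rpl7 and Rps24 were dim, with geometric mean signals of 32.8, 190 and 170, against 6653, 12703 and 16034 for the ones used. Rps24 differed in sign between its probe sets in SPI minus CAS (0.08 and -0.21), and Rpl7 in SPI minus GEN (-0.07 and 0.03).

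Genes that work with the ribosome were listed by function. Rack1, a ribosome-bound scaffold protein, read 6838 to 8155 with CAS, 7665 to 8880 with SPI and 7857 to 9566 with GEN, and its differences were 0.13, 0.21 and -0.08; without CAS 2 the first was 0.05 and the second 0.14. No gene of the following lists passed limma's test in any comparison.

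Elongation factors carry tRNA to the ribosome and move it along. Of 8 genes listed with them, 7 were tested, including Eef2k and Eef1e1, which do neither. Medians were 0.05, 0.14 and -0.06 in SPI minus CAS, GEN minus CAS and SPI minus GEN, and 5, 5 and 2 of the 7 were above 0. Leaving out single arrays moved these medians from 0.0082 (without CAS 3) to 0.09 (without CAS 1), from 0.06 (without CAS 2) to 0.19 and from -0.14 (without GEN 1) to -0.04. Eef2k, the kinase that inhibits Eef2, read 519, 605 and 524 with CAS, 487, 469, 476 and 392 with SPI and 404, 457 and 350 with GEN. All SPI and GEN arrays were below all CAS arrays, with differences of -0.27 and -0.45 (limma adjusted p = 0.987 and 0.825). Eef1b2 was at 0.29 in GEN minus CAS, and at 0.19 without GEN 3. Eef1g was at -0.15 in SPI minus CAS (-0.09 without SPI 4, -0.24 without CAS 2) and -0.29 in SPI minus GEN, and Eef1d at 0.25 in the last.

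Of 33 genes listed with the initiation factors, 26 were tested, including Naca, which is not itself an initiation factor. Medians were 0.08, 0.09 and 0.02, with 20, 19 and 14 above 0. Without single arrays the medians ranged from 0.05 to 0.13, from 0.03 to 0.14 and from -0.06 to 0.04. Eif4a1, the helicase that unwinds the mRNA leader, read 5036, 4428 and 3804 with CAS, 4433, 4671, 4101 and 5379 with SPI, and 5072, 6713 and 6175 with GEN. The GEN arrays were above the CAS arrays, GEN 1 narrowly, and the difference was 0.44 log2 (limma adjusted p = 0.825). Eif5a was at 0.33 in that comparison (0.19 without GEN 5), Eif3i at 0.16 and Eif3k at 0.34 in SPI minus CAS. In SPI minus GEN Eif4a1 was at -0.36 and Eif3k at 0.34.

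Ribosome biogenesis factors, which make rRNA and assemble the subunits, were tested for 38 of 52. Their medians were 0.02, -0.04 and 0.06, with 20, 18 and 22 above 0 (ranges without single arrays of -0.02 to 0.07, -0.07 to 0.01 and 0.01 to 0.08). They were split about evenly, whereas the ribosomal proteins were mostly on 1 side. These factors were dimmer, the brightest being Nop10 at a geometric mean signal of 2895. Of the 259 other bright probe sets, 181, 164 and 133 were above 0. The part of signal level in this contrast was not tested. Gar1, of the particles that modify rRNA, was at -0.62 and Nop14 at 0.67 in SPI minus CAS; Nop14 was at 0.21 without CAS 3 and 1.07 without CAS 2. In GEN minus CAS Tsr1 was at -0.32 and Las1l at 0.35 (0.22 without GEN 1). Ubtf, the RNA polymerase I factor, was at 0.33 and Tsr1 at 0.29 in SPI minus GEN.

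The mTOR pathway list, tested for 22 of 26 genes, had medians of 0.01, -0.10 and 0.06, with 11, 6 and 17 above 0 (ranges without single arrays of -0.02 to 0.03, -0.12 to -0.05 and 0.08 to 0.13). Mtor, the kinase itself, read 609, 689 and 718 with CAS, 644, 644, 580 and 575 with SPI and 531, 530 and 594 with GEN. All GEN arrays lay below all CAS arrays, and the difference was -0.28. Rps6kb1, an S6 kinase, was at -0.37 in the same comparison. Larp1 was at 0.37 in SPI minus CAS and 0.41 in SPI minus GEN, values that fell to -0.06 and -0.0011 with plain probe sets only and with gene means over probe sets, respectively, and Ddit4, an inhibitor of mTOR, was at 0.47 in SPI minus CAS but 0.11 without CAS 3. Larp1 in SPI minus GEN was at 0.15 without GEN 3. Rptor, the scaffold of mTOR complex 1, was at 0.44 in SPI minus GEN.

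The 95% interval of a member reached, in the median over the 39, 0.23 log2 to each side of its SPI minus CAS or SPI minus GEN difference and 0.25 for GEN minus CAS; over all tested probe sets it was 0.41, 0.41 and 0.44. Even the narrowest member interval, 0.18 to each side for SPI comparisons and 0.19 for GEN minus CAS, was wider than the members' median difference, so a shift of that size was not detectable gene by gene with these arrays.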

How the data were processed

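The members and the gene lists were chosen with earlier results of these data known. The deposited table holds MAS5 signal intensity, a linear value per probe set computed by the authors in MAS5, as the submitters' processing notes state. The trimmed mean was 500 on every array, so the authors' scaling was global. Of 15923 probe sets, 57 controls were left out. Genes were named from the platform annotation, which gives 12783 probe sets a single symbol, 312 several and 2771 none; names came only from the first kind. Signals under 1 (0.0637% of values) were set to 1, log2 was taken, and the lowest 40% by mean were left out, leaving 9520. All 10 arrays were fitted together by diet with limma 3.58.1 (lmFit, eBayes with trend) in R 4.3.3, with Benjamini-Hochberg adjustment over the 9520 and a threshold of 0.05; 7 residual degrees of freedom remained. The fit was tested on simulated data. Array-to-array correlations of log2 signal ranged from 0.918 to 0.967, and array median signals from 222.8 to 256.7. Precision is limited by how few arrays there are.

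The genes named were, per comparison, the 6 highest and 6 lowest members, Rpl37a, Rplp0, Rpsa and Rps6, and the 2 smallest p-values of each related list; Rpl4, Rpl3, Rps3a, Rpl18 and other members outside it were named for their unadjusted p or separated groups, after their values were seen. The alternatives were quantile normalization, centring arrays on their medians, other filters, an offset of 32, no variance trend, only the 2 diets compared, a replicate block, gene means over probe sets, plain probe sets only, the actin 3′ to 5′ ratio as a covariate, and leaving out each array. Leaving out Rpl37a was chosen after seeing the data. Whether replicate numbers shared between diets mark pairs is not known. Over 6 same-numbered pairs, deviations correlated from -0.18 to 0.16, with 1 over 0.1. Over 27 pairs with other numbers they correlated from -0.40 to 0.30, with 11 over 0.1. So few same-numbered pairs cannot settle the question.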

Additional observations from a re-analysis of the deposited data

Results flagged for a closer look

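An array far from the others of its diet was looked for in the SPI group alone, since groups of 3 are too small for the rule; the split of the GEN arrays in Rpl37a and Rpl39 was therefore not examined this way. In 52 values checked, 3 stood out by Dixon's 95% limit for 4 arrays, and chance flags about 1 in 20 such groups. Eef1b2, an elongation factor subunit, read 9118 on SPI 4, against 7944 to 8136 on the other SPI arrays. Rps27l, a paralog of a small subunit protein, read 597 on SPI 3, against 253 to 276. Rptor read 424 on SPI 2, against 382 to 387.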

How the results depend on the processing

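No member passed the adjusted threshold under any alternative except Rpl37a in SPI minus GEN without GEN 5, so calls there ranged from 0 to 1. Members at an unadjusted p under 0.05 are counted next, with the share of all probe sets in brackets. In SPI minus CAS there were 2 with centred arrays (4.98%), 2 with only the 2 diets fitted (3.98%) and 0 without Rpl37a (4.82%). In GEN minus CAS there were 2 with centred arrays (5.74%), 1 with no filter (5.57%) and 1 without the variance trend (5.64%). There were 2 with only the 2 diets fitted (5.66%) and 1 with the replicate block (4.37%). In SPI minus GEN there was 1 with centred arrays (9.29%), 1 with the actin ratio as covariate (5.46%) and 1 without Rpl37a (7.95%). Leaving out arrays gave 1 to 2, 1 to 10 and 1 to 5, and the background of each changed count is given with its comparison above. The replicate block gave 1, 1 and 2 such members and medians of 0.06, 0.12 and -0.08; these numbers do not mark pairs, and the block changed no adjusted call.

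Of 876 gene values under other alternatives, 854 kept their direction. Those reversed in SPI minus CAS were, with quantile normalization, Rpl7 (-0.058) and Rps15 (-0.034); with centred arrays, Rpl35a (0.036), Rpl6 (0.062) and Rplp0 (0.064); with the replicate block, Rpl7 (-0.017) and Rps15 (-0.017); with the actin ratio, Rpl6 (0.018) and Rplp0 (0.0029); with plain probe sets, Larp1 (-0.063). In GEN minus CAS they were, with quantile normalization, Rpl13a (-0.038), Rpl23a (-0.027), Rpl27a (-0.044) and Rps28 (-0.051), and with the block Rpl37a (0.054). In SPI minus GEN they were, with the block, Rpl23a (-0.044), Rpl26 (-0.024) and Rps28 (-0.011); with gene means, Rpsa (0.071) and Larp1 (-0.0011); with the actin ratio, Rpl23a (-0.036) and Rps28 (-0.020). The cause was not tested.

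Without single arrays, 23 of 539 gene values reversed. The ranges for SPI minus CAS were -0.084 to 0.064 (Rpl6), -0.037 to 0.067 (Rpl7), -0.056 to 0.067 (Rplp0) and -0.0027 to 0.060 (Rps15). For GEN minus CAS they were -0.054 to 0.073 (Rpl23a), -0.27 to 0.22 (Rpl37a), -0.23 to 0.15 (Rps15a) and -0.013 to 0.14 (Rps28). For SPI minus GEN they were -0.042 to 0.090 (Rpl23a), -0.053 to 0.17 (Rpl26), -0.014 to 0.12 (Rpl27), -0.035 to 0.35 (Rps15a), -0.025 to 0.12 (Rps28) and -0.18 to 0.0058 (Rpsa). Centring moved the median of all probe sets to 0.06, -0.00 and 0.06.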

Other observations

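Mitochondrial ribosomal proteins, which make up the separate ribosome of the mitochondrion, were split more evenly around 0. They were also dimmer than most members, with geometric mean signals of at most 1843. They were tested for 68 of 71 genes, and their median log2 differences were -0.0001 in SPI minus CAS (34 above 0), 0.04 in GEN minus CAS (40 above) and -0.03 in SPI minus GEN (29 above); none passed limma's test. Leaving out CAS 2 or CAS 3 moved the SPI minus CAS median to -0.10 or 0.11, and the GEN minus CAS median to -0.05 or 0.14. Mrpl49, a large subunit protein there, read 311, 328 and 355 with CAS, 254, 218, 261 and 250 with SPI and 351, 324 and 306 with GEN. The SPI arrays were below all others, with SPI minus CAS at -0.43 and SPI minus GEN at -0.41 (limma adjusted p = 0.941 and 0.563). Mrpl44 was at -0.42 and -0.58 in the same comparisons, the first of which was -0.20 without CAS 3. Mrps6 read 1157, 1059 and 1101 with CAS and 1505, 1599 and 1380 with GEN, which did not overlap, and GEN minus CAS was 0.43 (limma adjusted p = 0.825); Mrps22 was at 0.47.

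Of the paralogs with like names, Rpl7l1, Rps27l and Rps4y2 were tested. In SPI minus CAS they were at 0.01, 0.38 and 0.28, and Rps27l was at 0.09 without SPI 3, while Rps4y2 was at 0.10 without CAS 2 and 0.50 without CAS 3. In GEN minus CAS Rpl7l1 was at -0.22 and Rps27l at 0.23, which became 0.02 without GEN 3. In SPI minus GEN Rpl7l1 was at 0.23 and Rps4y2 at 0.32 (0.20 without GEN 5, 0.50 without GEN 3). None passed limma's test.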
